A study of Caenorhabditis elegans with 6 samples.

Results

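The UDP-glucuronosyltransferase genes of *C. elegans* were taken as every gene whose name in the deposited table is *ugt-* followed by a number, which gave 65 of the 20362 genes counted. RNA of whole nematodes was sequenced from 3 libraries of *grh-1* OEx and 3 of wild-type N2 (WT, Bristol). *grh-1* OEx is 1 integrated line that carries *hsp-16.2p::grh-1::gfp*, the coding sequence of the transcription factor Grainyhead 1 fused to *gfp* under a heat shock promoter, and it was made by bombardment of an *unc-119* mutant and then backcrossed to N2. Neither group was heat shocked, so that the promoter of the construct was not induced by heat. The paper reports by RT-qPCR that the line still overexpresses *grh-1* to a limited degree in that state. Both groups were grown at 20 °C on *E. coli* OP50, 64 h from egg to young adult and 48 h beyond, and each library is described as an independent biological sample.

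UDP-glucuronosyltransferases are enzymes of the endoplasmic reticulum membrane that attach a sugar from a UDP-sugar donor to small lipophilic molecules, which makes them soluble enough to be pumped out of the cell. This conjugation is the second phase of detoxification, after oxidation by cytochrome P450 enzymes. Vertebrate members mostly use UDP-glucuronate, whereas the drug metabolites known from nematodes are largely glucosides, so that the family name gives the fold and not the sugar. In *C. elegans* many detoxification genes are expressed in the intestine, and *ugt-22* is known from work on the anthelmintic albendazole.

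The deposited annotation gave all 65 genes a term for hexosyltransferase activity and 58 the term for glucuronosyltransferase activity. *ugt-44* was the member annotated to the innate immune response, and *ugt-23* the member annotated to gastrulation. The gene models were 1017 to 2029 bases wide, with a median of 1683. Chromosome V held 41 of the 65, or 63.1%, against 25.2% of all counted genes, and chromosome II held 1 member, *ugt-58*.

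*grh-1* itself stood at 7.65, 9.69 and 6.52 CPM (counts scaled to a common library size) in *grh-1* OEx replicates 1 to 3, against 5.0, 5.63 and 6.17 CPM in WT replicates 1 to 3. All 3 *grh-1* OEx libraries lay above all 3 WT libraries. The log2 fold change was 0.51 (standard error, SE, 0.21), with a 95% interval from 0.04 to 0.97. Its unadjusted p was 0.0365 in edgeR's test, and it did not pass across all genes (adjusted p = 0.709). Library totals ran from 15287284 to 20314670 counts in *grh-1* OEx and from 14409044 to 25535026 in WT. Principal component 1, with 51.9% of the variance, set WT replicate 3 apart from the other libraries. That library also had the most RNA of sperm genes, as 14 sperm markers such as *ssp-10* and *msp-78* summed to 10.7 to 23.6 CPM in *grh-1* OEx and to between 5.27 and 164 CPM in WT, with the highest value in replicate 3. Its part in the values below was not tested, and the main results are given with and without it.

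The family was expressed over more than 3 powers of 10, and the same few genes led it in both groups. *ugt-22* (WBGene00007455, chromosome IV from 13639266 to 13644401 of WBcel235, plus strand) was the highest by CPM per kilobase of gene width, the scale on which genes are compared here. It stood at 135, 148 and 147 CPM per kb in *grh-1* OEx and at 163, 159 and 132 CPM per kb in WT. This was above every other member in every library. *ugt-62* followed at 69.8, 75.6 and 78.7 CPM per kb in *grh-1* OEx and 66.0, 71.1 and 53 CPM per kb in WT. *ugt-64* (45.3 to 61.3 CPM per kb over all libraries), *ugt-44* (43.9 to 51.2) and *ugt-58* (40.6 to 49.0) came next, and each of these overlapped its neighbor in that order, *ugt-62* and *ugt-64* included. *ugt-47* (22.3 to 31.1 CPM per kb), *ugt-46* (23.5 to 28.0) and *ugt-12* (20.3 to 28.7) overlapped each other and lay below *ugt-58* in every library. The authors' FPKM put these 8 genes in the same order, but FPKM use the same gene widths. The order depends on these widths. For *ugt-46* the deposited width was 1779 bases, against 2909 exonic bases in Ensembl. With the larger value *ugt-46* would stand lower, and its place among the 8 was not tested with other widths. The values were closer for *ugt-22* (2029 and 2220) and *ugt-62* (1702 and 1691).

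The 8 highest members held 58.6% of the summed CPM per kb of the family, while the 32 lowest held 6.85%. There were 18 members above 10 CPM per kb, 32 from 1 to 10 and 15 below 1. Of the 65, 62 had a read in every library. The 9 members left untested for low counts (*ugt-10*, *ugt-15*, *ugt-18*, *ugt-27*, *ugt-34*, *ugt-35*, *ugt-38*, *ugt-42* and *ugt-56*) had 4 to 48 counts over all 6 libraries together and at most 16 in any of them.

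**Figure D1:**
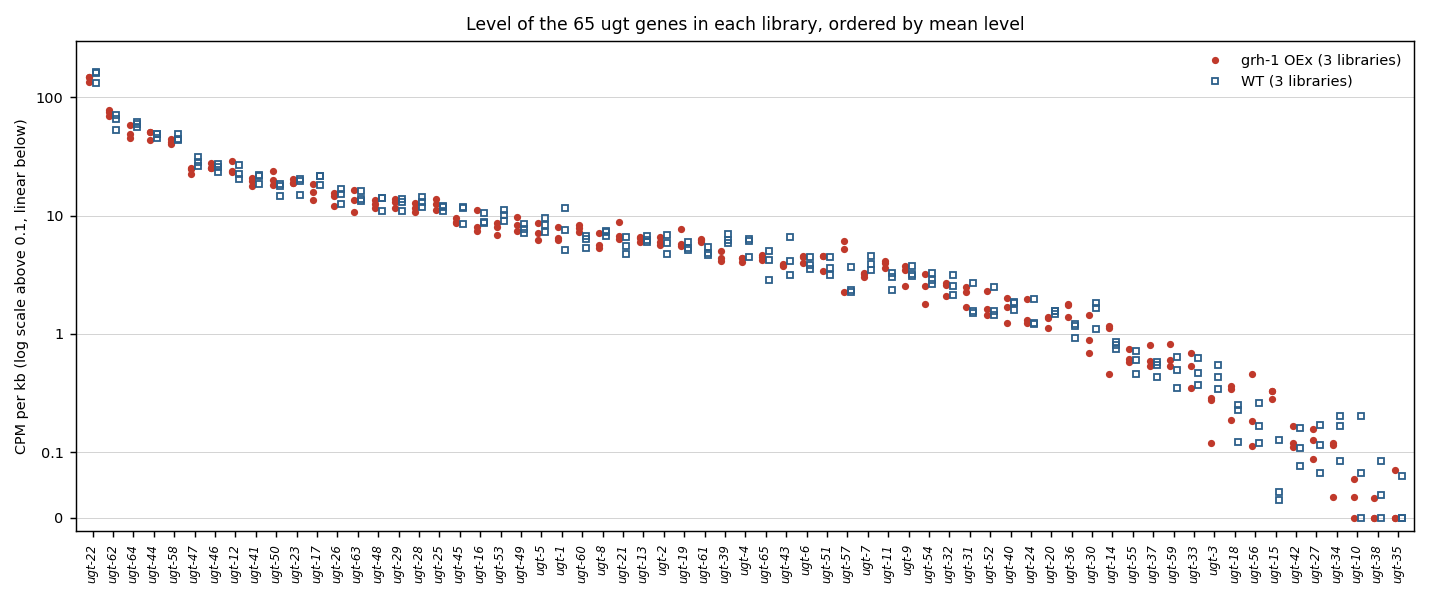
Level of each of the 65 *ugt* genes in CPM per kb (y axis, log scale above 0.1) in 3 *grh-1* OEx libraries (filled circles) and 3 WT libraries (open squares), ordered by mean level. *ugt-22* lies at 132 to 163 CPM per kb, and the libraries of both groups overlap for most genes down to the 15 members below 1.

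Together the 65 genes summed to 711, 763 and 755 CPM per kb in *grh-1* OEx replicates 1 to 3, against 799, 778 and 695 CPM per kb in WT replicates 1 to 3. The highest and the lowest libraries were both WT, so that the groups overlap. The mean was 743 ± 27.6 CPM per kb in *grh-1* OEx and 758 ± 55.0 CPM per kb in WT (SD, n = 3 each), a ratio of 0.981. *ugt-22* made up 19 to 19.4% of this sum in *grh-1* OEx and 19 to 20.4% in WT. On the scale of CPM without division by width the log2 ratio of the sums was -0.03, and it was -0.09 without WT replicate 3. In RNA of whole animals, fewer cells of a type and less RNA per cell cannot be told apart.

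**Figure D2:**
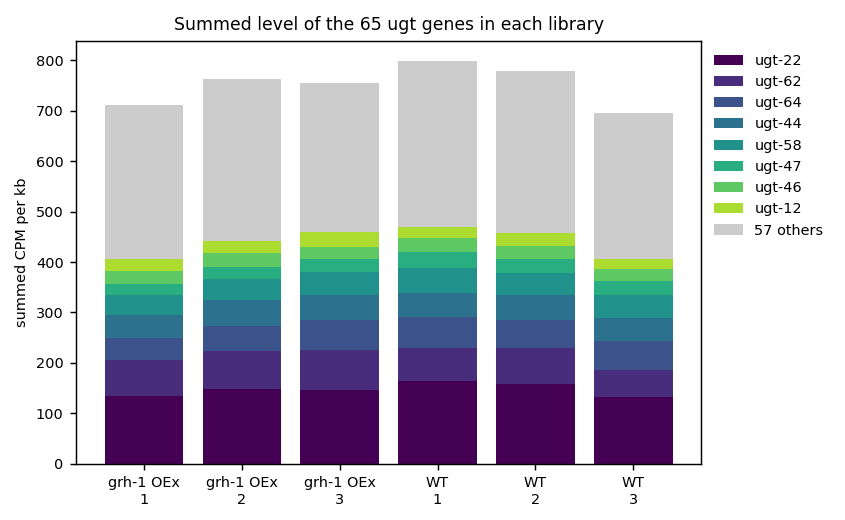
Summed CPM per kb of the 65 *ugt* genes (y axis) in each of the 3 *grh-1* OEx and 3 WT libraries, with the 8 highest members stacked from the bottom and the 57 others in gray. The *grh-1* OEx bars reach 711 to 763 and the WT bars 695 to 799.

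No member passed the test between *grh-1* OEx and WT. Of the 56 that could be tested by edgeR's quasi-likelihood test, 0 had an adjusted p under 0.05 (Benjamini-Hochberg over 13736 genes), where 0.444% of all tested genes did (0.146% higher and 0.298% lower in *grh-1* OEx). The smallest adjusted p of a member was 0.538. At an unadjusted p under 0.05 edgeR gave 4 of 56 members (7.14%, against 6.62% of all tested genes). Of these, 1 was higher in *grh-1* OEx, where 2.18% of all tested genes were, and 3 were lower, where 4.44% of all tested genes were. DESeq2 called 0 members and 1.11% of all genes, and gave 2 members and 5.32% of all genes at an unadjusted p under 0.05. limma-voom called 0 members and 0.444% of all genes, and gave 5 members and 5.69% of all genes at an unadjusted p under 0.05. Without WT replicate 3 edgeR called 0 members and 0.972% of all genes, and at an unadjusted p under 0.05 it gave 6 members and 8.68% of all genes. The unadjusted count was 2 with the replicate number as a block (5.27% of all genes) and with upper-quartile factors (6.67%), and it was 0 without *grh-1* OEx replicate 1 (4.21%). Over the 13 other settings 0.086 to 1.71% of all tested genes were called, and 0 members.

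The fold changes lay around 0 in both directions. Of the tested members 28 had a positive and 28 a negative log2 fold change. Their median was -0.02 (quartiles -0.21 and 0.15), and the median over all 13736 genes was -0.01. The lowest was -0.95 and the highest 0.72, and 38 members lay within 0.25 of 0. For 49 of the 56 (87.5%) the 95% interval of the log2 fold change lay within -1 and 1, as it did for 80.3% of all tested genes. For 22 members (39.3%) it lay within a 1.5-fold change either way, against 50.4% of all tested genes. These 22 include the 8 highest. For *ugt-22* the log2 fold change was -0.08 with an interval from -0.42 to 0.25, for *ugt-62* 0.24 (-0.09 to 0.57), for *ugt-64* -0.21 (-0.51 to 0.10), for *ugt-44* 0.03 (-0.26 to 0.31) and for *ugt-58* -0.11 (-0.38 to 0.16). The 7 members whose intervals reached past -1 or 1 were *ugt-57*, *ugt-36*, *ugt-30*, *ugt-14*, *ugt-37*, *ugt-59* and *ugt-3*. Except for *ugt-57* their mean stood below 1.5 CPM per kb. The biological coefficient of variation had a median of 0.193 over the tested members and 0.183 over all tested genes.

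**Figure D3:**
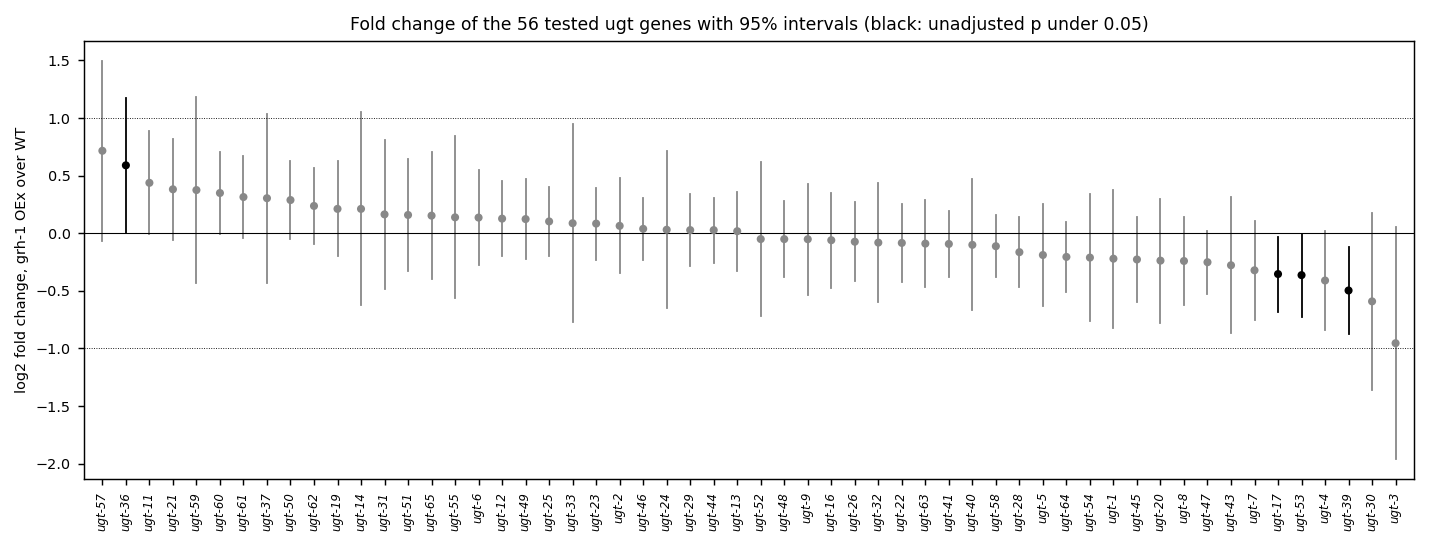
log2 fold change of *grh-1* OEx over WT (y axis) for the 56 tested *ugt* genes, with 95% intervals as lines, dotted lines at -1 and 1, and black for unadjusted p under 0.05. The points run from 0.72 (*ugt-57*) to -0.95 (*ugt-3*), and 49 intervals stay between the dotted lines.

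The 4 members with an unadjusted p under 0.05 were *ugt-39*, *ugt-17*, *ugt-53* and *ugt-36*, all on chromosome V and none past the adjusted threshold. *ugt-39* (WBGene00017329, 7157142 to 7159188, plus strand) had 7.65, 8.77 and 7.34 CPM in *grh-1* OEx, against 12.3, 10.3 and 11 CPM in WT. All 3 *grh-1* OEx libraries lay below all 3 WT libraries, and the log2 fold change was -0.50 (SE 0.17, adjusted p = 0.538). Its unadjusted p was under 0.05 in 12 of 14 settings and its adjusted p in none of them, with adjusted p from 0.391 to 1.00. For the others of these 4 the unadjusted p was under 0.05 in fewer settings, in 7 of 14 for *ugt-17*, 5 of 14 for *ugt-36* and 2 of 14 for *ugt-53*. *ugt-17* (WBGene00007422, 10102591 to 10104946, minus strand) had 27.1, 31.1 and 23.1 CPM in *grh-1* OEx, against 36.9, 36.4 and 30.7 CPM in WT. The groups touch, as *grh-1* OEx replicate 2 lay above WT replicate 3, and the log2 fold change was -0.35 (SE 0.15, adjusted p = 0.705).

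*ugt-53* (WBGene00020182, 2849352 to 2852031, plus strand) had 13.7, 12.7 and 10.7 CPM in *grh-1* OEx, against 15.9, 17.7 and 14.1 CPM in WT. The groups did not overlap, with a log2 fold change of -0.36 (SE 0.16, adjusted p = 0.751). *ugt-36* (WBGene00017315, 7167009 to 7169205, plus strand) was the only one of the 4 with a positive value. It had 2.84, 2.24 and 2.89 CPM in *grh-1* OEx, against 1.96, 1.86 and 1.49 CPM in WT. Every *grh-1* OEx library lay above every WT library, and the log2 fold change was 0.59 (SE 0.26, adjusted p = 0.751). *ugt-39* and *ugt-36* lie in the same stretch of chromosome V, with *ugt-41* between them, and had fold changes of opposite sign. *ugt-41* itself was 37.1, 31.5 and 35.0 CPM in *grh-1* OEx and 38.3, 39 and 33.1 CPM in WT.

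*ugt-57* (WBGene00017154, chromosome X from 6991757 to 6994159, plus strand) had the most positive fold change among tested members and is the 1 member with a predicted Grainyhead site in the study's supplementary table of promoter motifs, which covers only genes that the study listed as higher in *grh-1* OEx in these libraries. Its listing is therefore not independent of its fold change. The paper kept only sites found by both of its prediction methods. Other members may thus have been left out of the scan, or scanned without such a site, and this was not checked here. The *ugt-57* site lies upstream of the gene on the plus strand of WBcel235, at chrX:6989940-6989947 to within 1 base. It is in capitals because every letter belongs to the match:
*ugt-57* site: ACAGGTTT
The gene had 10.0, 11.6 and 4.33 CPM in *grh-1* OEx, against 7.09, 4.48 and 4.32 CPM in WT, here and elsewhere in the order of replicates 1 to 3. *grh-1* OEx replicate 3 lay among the WT libraries and the other two lay above all of them. The mean was 8.64 ± 3.82 CPM in *grh-1* OEx and 5.30 ± 1.56 CPM in WT (SD, n = 3 each). The log2 fold change of 0.72 (SE 0.35) had an unadjusted p of 0.0686 and an adjusted p of 0.798 in edgeR's test across all genes. Without *grh-1* OEx replicate 3 the log2 fold change was 1.05 (adjusted p = 0.270), and without *grh-1* OEx replicate 2 it was 0.45 (adjusted p = 1.00). The unadjusted p was under 0.05 in 6 of 14 settings, among them DESeq2 (0.0311). The adjusted p ranged from 0.242 to 1.00 over 14 settings. Reads of *ugt-57* may include those of *F01E11.8*, a noncoding gene on the opposite strand that shares 76 exonic bases with it, since the library kit does not mark the strand.

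*ugt-15* (WBGene00008097, chromosome V from 12827779 to 12830109, plus strand) stood apart among the members with too few reads to be tested. It had 10, 11 and 9 counts in *grh-1* OEx replicates 1 to 3, against 1, 4 and 1 counts in WT replicates 1 to 3. In CPM this was 0.481, 0.561 and 0.565 in *grh-1* OEx and 0.0675, 0.219 and 0.0464 in WT, and the groups did not overlap. The ratio of the summed counts after scaling for depth was 4.85, with an exact 95% interval from 1.99 to 14.3 that covers counting error only. The interval does not allow for the gene having been named because its groups did not overlap. With no filter on low counts edgeR gave a log2 fold change of 2.25 and an adjusted p of 0.400. It passed the filter when WT replicate 1 or 2 was left out, with a log2 fold change of 2.06 (adjusted p = 0.285) without WT replicate 1 and of 3.18 (adjusted p = 0.222) without WT replicate 2. In both cases it passed only through *grh-1* OEx, the group where it is high. A large positive value was then built into the selection, and these values are no separate support. Its neighbor *ugt-16*, which ends less than 1 kb before it on the same strand, had 14.3, 20.0 and 13.3 CPM in *grh-1* OEx and 18.7, 15.4 and 15.6 CPM in WT. The next member upstream, *ugt-18*, had 12, 12 and 5 counts in *grh-1* OEx and 3, 7 and 9 counts in WT.

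**Figure D4:**
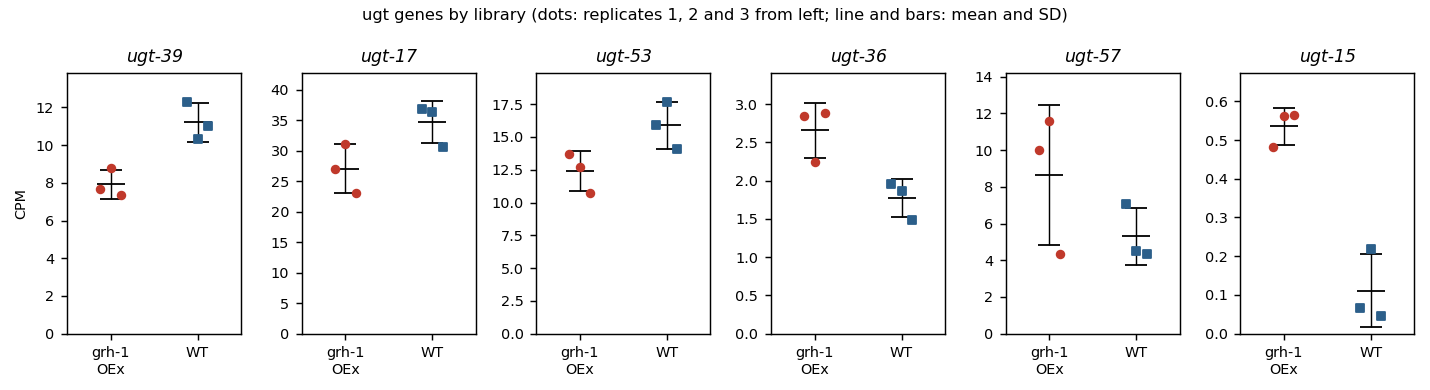
CPM (y axis, from 0, scaled per gene) of *ugt-39*, *ugt-17*, *ugt-53*, *ugt-36*, *ugt-57* and *ugt-15* in *grh-1* OEx (left) and WT (right), with each library as a point, the mean as a line and the SD as bars. *ugt-57* has 1 *grh-1* OEx library, at 4.33 CPM, among the WT libraries, and *ugt-15* lies below 0.6 CPM in every library.

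The CPM of the groups did not overlap for 11 of the 56 tested members (19.6%), where 9.53% of all tested genes had no overlap. In 4 of them *grh-1* OEx was the higher group and in 7 the lower, against 3.39% and 6.14% of all tested genes. Beside *ugt-36*, the 4 were *ugt-60*, *ugt-61* and *ugt-11*. *ugt-60* had 12.4, 13.5 and 14.1 CPM in *grh-1* OEx, against 10.7, 11.5 and 9.10 CPM in WT. *ugt-11* had 6.98, 6.38 and 7.34 CPM in *grh-1* OEx, against 5.74, 4.15 and 5.38 CPM in WT. *ugt-61* had 11, 11.2 and 10.5 CPM in *grh-1* OEx, against 9.52, 8.15 and 8.59 CPM in WT. The differences were small, with log2 fold changes of 0.35, 0.44 and 0.31 in that order and adjusted p of 0.759, 0.759 and 0.812 (edgeR). Over 14 settings the unadjusted p was under 0.05 in 4 for *ugt-60*, 5 for *ugt-11* and 0 for *ugt-61*.

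Beside *ugt-39* and *ugt-53*, the 7 with lower *grh-1* OEx values were *ugt-47*, *ugt-4*, *ugt-7*, *ugt-20* and *ugt-3*. *ugt-47* had 36.8, 40.7 and 42.0 CPM in *grh-1* OEx, against 51.5, 43.7 and 47.0 CPM in WT. *ugt-4* had 7.17, 6.63 and 7.21 CPM in *grh-1* OEx, against 10.1, 7.33 and 10.5 CPM in WT. Their log2 fold changes were -0.25 and -0.41, with adjusted p of 0.798 and 0.783 (edgeR). *ugt-3*, next to *ugt-6*, had the lowest fold change of the 56 tested members on few reads, with 4, 9 and 7 counts in *grh-1* OEx and 13, 10 and 15 counts in WT (log2 fold change -0.95, SE 0.45, adjusted p = 0.782). It passed the filter only through WT, the group where it is higher, which favors a negative value. It was not tested where 10 counts were required in every library. *ugt-7* and *ugt-20* had log2 fold changes of -0.32 and -0.24, with adjusted p of 0.894 and 1.00. Of the members with larger fold changes whose groups overlapped, *ugt-30* stood at -0.59 (SE 0.34), *ugt-21* at 0.38 (SE 0.20) and *ugt-59* at 0.38 (SE 0.36).

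Many members are tandem neighbors, and their levels differed within most runs. With a gap of less than 10 kb between gene spans, 36 of the 65 members fell into 11 runs of 2 to 7 genes, and 29 stood alone. The longest run lies on chromosome V from 4887173 to 4911458 and holds *ugt-12*, *ugt-11*, *ugt-9*, *ugt-10*, *ugt-8*, *ugt-14* and *ugt-13* in that order. In it the mean over all 6 libraries was 24.1 CPM per kb for *ugt-12* and 0.0602 for *ugt-10*, with the other 5 between. The run from 7139483 to 7169205 on the same chromosome, with *ugt-40*, *ugt-37*, *ugt-38*, *ugt-39*, *ugt-41* and *ugt-36*, had 19.9 CPM per kb for *ugt-41* and 0.0252 for *ugt-38*. On chromosome I, *ugt-27* stood at 0.122 CPM per kb between *ugt-26* at 14.4 and *ugt-28* at 12.4. In the run of *ugt-5*, *ugt-4*, *ugt-6* and *ugt-3* on chromosome V, *ugt-5* stood at 7.85 CPM per kb and *ugt-3* at 0.335. The deposited width of *ugt-5* was 1056 bases, against 1779 exonic bases in Ensembl, and the larger value would lower its level. Only in the runs of *ugt-47* with *ugt-17* and of *ugt-1* with *ugt-2* was the highest member within 1.5-fold of the lowest.

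The 36 genes in runs had a median of 4.17 CPM per kb and the 29 single genes one of 6.43, with ranges that overlap (0.0227 to 48.3 and 0.124 to 147 CPM per kb). Of each class 28 genes were tested, with median log2 fold changes of -0.07 in runs and 0.03 for single genes. Sequences of the members were not compared here, so that reads of similar neighbors could have been split or lost in counting. Exonic bases shared with other annotated genes bear on a few highly expressed members, as *ugt-22* shares 309 with *srz-29*, *ugt-50* shares 340 with *nhr-26* and *ugt-64* shares 72 with *C07G3.10*, each on the opposite strand.

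**Figure D5:**
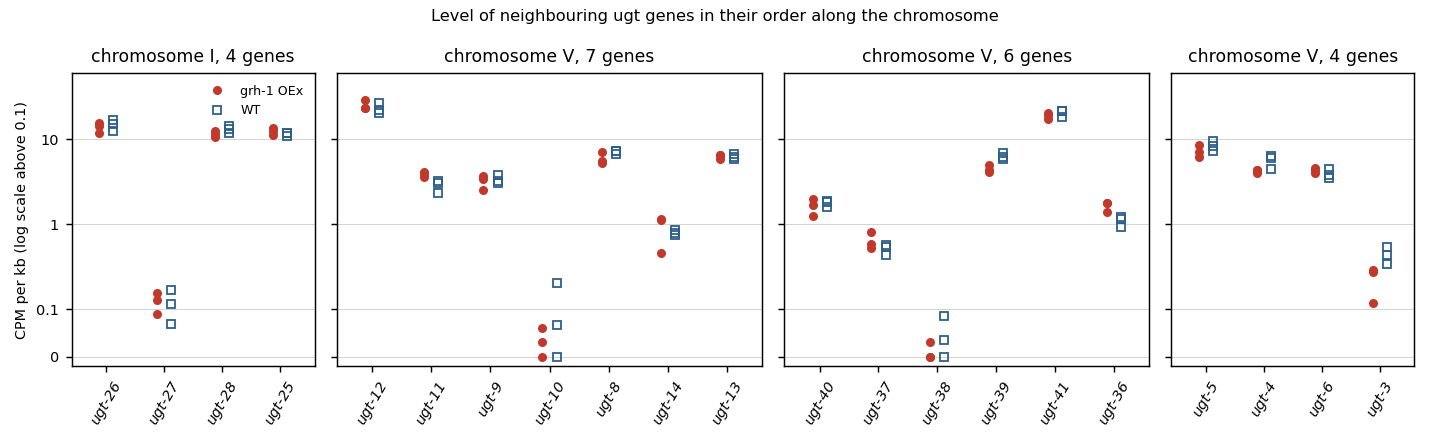
CPM per kb (y axis, log scale above 0.1) of *ugt* genes in the 4 runs with at least 4 members, in their order along the chromosome, for 3 *grh-1* OEx (filled) and 3 WT (open) libraries. In 3 of the runs 1 gene (*ugt-27*, *ugt-10* or *ugt-38*) averages 0.122 CPM per kb or less and lies below its neighbors in both groups.

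Genes that act with the family were described by 3 lists. The supply of UDP-sugars was represented by 7 genes, all tested, with a median log2 fold change of 0.01. Of these, edgeR called 0 and gave 1 at an unadjusted p under 0.05, where 6.62% of all tested genes were. *sqv-4*, the UDP-glucose dehydrogenase that makes UDP-glucuronate, had 328, 316 and 389 CPM in *grh-1* OEx, against 367, 370 and 366 CPM in WT. *sqv-1*, the decarboxylase that turns UDP-glucuronate into UDP-xylose, had 306, 251 and 320 CPM in *grh-1* OEx, against 191, 212 and 187 CPM in WT. Its groups did not overlap, but its log2 fold change of 0.57 (SE 0.15) did not pass across all genes (adjusted p = 0.292, unadjusted p = 0.00405 in edgeR). *gale-1*, the epimerase between UDP-glucose and UDP-galactose, stood at a log2 fold change of 0.11 (SE 0.14).

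Of 13 tested regulators of detoxification genes, 0 were called and 0 had an unadjusted p under 0.05, with a median log2 fold change of -0.03. *skn-1*, the Nrf2-like factor that drives many conjugating enzymes, had 265, 271 and 223 CPM in *grh-1* OEx, against 213, 215 and 349 CPM in WT, so that the *grh-1* OEx libraries lay inside the WT range. *pqm-1*, a zinc finger factor of stress and metabolic genes, had a log2 fold change of -0.36 (SE 0.17, adjusted p = 0.791), and *elt-2*, the main intestinal GATA factor, 0.16 (SE 0.14). Of the ABC transporters that export conjugates and other compounds, 21 of 23 listed genes were tested and 0 were called, where 0.444% of all tested genes were. The log2 fold changes of these pumps ran from -0.60 (*pgp-13*, adjusted p = 0.703) to 0.51 (*pgp-12*, adjusted p = 0.897), with a median of 0.05. Only *pgp-13* had an unadjusted p under 0.05, and 4.44% of all tested genes were lower at that threshold. For *pgp-13* and *pgp-2* all *grh-1* OEx libraries lay below all WT libraries, as for 6.14% of all tested genes.

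Beside the *ugt* genes, the markers of tissues that could hold them were as follows, and their part in the values above was not tested. Of 13 intestine markers 0 were called, and 2 (*asp-1* and *mtl-2*) were lower in *grh-1* OEx at an unadjusted p under 0.05, where 4.44% of all tested genes were. The median log2 fold change of the 13 was -0.13. For 3 of them (*asp-1*, *mtl-2* and *act-5*) all *grh-1* OEx libraries lay below all WT libraries, as for 6.14% of all tested genes. The 13 summed to 35106 to 48906 CPM in *grh-1* OEx and 27756 to 60573 CPM in WT, mostly from the yolk protein genes *vit-2* (log2 fold change -0.63, SE 0.30) and *vit-6* (0.49, SE 0.28), which did not pass the test. All 7 epidermis markers had a positive log2 fold change, from 0.10 to 0.41 with a median of 0.26. Of these 0 were called and 0 had an unadjusted p under 0.05, and their sum was 317 to 437 CPM in *grh-1* OEx and 252 to 393 CPM in WT. Of the 14 sperm markers 9 were tested, with 0 called and 3 lower in *grh-1* OEx at an unadjusted p under 0.05 (4.44% of all tested genes). These 3 (*ssp-10*, *msp-78* and *gsp-4*) were each highest in WT replicate 3. *ssp-10* had 28.2 CPM there, against 2.03 and 3.28 CPM in WT replicates 1 and 2. None of the 5 muscle, 6 neuron and 7 oocyte and germline markers was called or had an unadjusted p under 0.05.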

How the data were processed

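Poly(A) RNA was sequenced from 3 *grh-1* OEx and 3 WT libraries (TruSeq RNA Sample Prep Kit v2, unstranded), grouped by the titles in the labels. The raw counts per gene deposited by the authors come from trimmed reads, STAR alignment to the Ensembl annotation of WBcel235 and featureCounts of Subread, with versions not given in the sources used here. Normalized counts deposited by the authors, a signal in which each library's counts are multiplied by 1 factor, served only as a check. The authors' FPKM, which use the same counts and gene widths, were only set beside the order of levels. The deposited table holds the GC fraction of each gene, which was not used in a test, and p-values and log2 ratios of the authors' own comparison, which were not used.

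Raw counts were tested with edgeR 4.0.16 in R 4.3.3 (TMM, glmQLFit, glmQLFTest, group only) on the 13736 genes that filterByExpr kept (count minimum 10, total minimum 15), and p-values were adjusted by Benjamini-Hochberg with a threshold of 0.05. Every adjusted p is from this fit unless another tool is named. Standard errors were taken from the F statistic. CPM use TMM-scaled totals, and CPM per kb divide by the deposited gene width. For some members, such as *ugt-46*, *ugt-50*, *ugt-5*, *ugt-65* and *ugt-24*, this width is well below the exonic bases of Ensembl. Levels per kb with other widths were not computed. Overlaps were read from Ensembl release 115 of WBcel235, in which 65 of 65 members were found, 2 with the same span, so that coordinates are those of the deposited table. On counts simulated for 13589 tested genes of this comparison edgeR recovered 55 of 100 genes changed by 1 and 85 of 100 changed by 2 on the log2 scale, with 13 false calls, and 95.2% of the 95% intervals held the true value.

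Members and lists were chosen with earlier results of these data known. Named were members with an unadjusted p under 0.05, the 8 highest, the 5 most positive and 5 most negative, those whose groups did not overlap, *ugt-57*, *ugt-22*, and up to 3 genes of each pathway list with the smallest p. Others (such as *ugt-16*, *ugt-18*, *ugt-41*, *ugt-50*, *sqv-4* and *skn-1*) were named after their values were seen, as neighbors or for their role. Alternatives were DESeq2 1.42.0, limma-voom (limma 3.58.1), factors by upper quartile or RLE, testing without a filter or only genes with 10 counts in each library, a block for the replicate number, and leaving out each library. Libraries of a group differed by far more than counting noise (chi-square per degree of freedom at least 17.7).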

Additional observations from a re-analysis of the deposited data

How the results depend on the processing

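No *ugt* gene was called in any of the 13 alternatives (edgeR with other factors, filters, block or libraries, DESeq2, limma-voom). The number with an unadjusted p under 0.05, 4 with all libraries, was 2 in DESeq2, with upper-quartile factors and with the replicate number as a block, and 0 (without *grh-1* OEx replicate 1) to 6 (without WT replicate 3) when 1 library was left out. The cause was not tested. The median log2 fold change of tested members, -0.02, was 0.067 with no filter and -0.065 to 0.099 with 1 library left out. Dropping the filter adds the 9 members with few reads and also moved other members, such as *ugt-22* from -0.08 to -0.04. The median over all tested genes was 0.019 with no filter and -0.019 to 0.035 with 1 library left out. The summed log2 ratio ran from -0.09 to 0.01 with 1 library left out. Of 299 alternative values of 24 named members, 293 kept their direction and 0 passed the threshold. The other 6 were of *ugt-22* (-0.17 to 0.018 with 1 library left out), *ugt-44* (-0.014 to 0.10) and *ugt-46* (-0.022 to 0.14). These genes are among the highest members. Most of the 24 were named for their p, fold change or lack of overlap in these same libraries. That choice favors a kept direction, so the 293 are no separate support. Deviations of same-numbered libraries had correlations of 0.23, -0.01 and -0.12, and those of differently numbered libraries ran from -0.37 to 0.33. These few values cannot settle whether the numbers pair the samples. With these libraries a change near 1 on the log2 scale was often missed on simulated counts of all tested genes, and members below 1 CPM per kb are limited by their counts.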

Other observations

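Some genes outside the family carry a similar annotation and were looked at after the values were seen. *C23G10.6*, described as a UDP-glucuronosyltransferase but without a *ugt* name, had 8.81, 6.53 and 10.4 CPM in *grh-1* OEx, against 6.21, 4.81 and 4.64 CPM in WT. Its groups did not overlap, and its log2 fold change of 0.71 (standard error, SE, 0.23) had an adjusted p of 0.461. *glct-6*, described as glucuronosyltransferase-like, had 11, 11.9 and 12.9 CPM in *grh-1* OEx, against 18, 15.9 and 18.9 CPM in WT, with a log2 fold change of -0.56 (SE 0.15, adjusted p = 0.268). The other *glct* genes, *glct-1* to *glct-5*, had at most 1 count in any library. *sqv-8*, a glucuronosyltransferase of glycosaminoglycan synthesis, stood at a log2 fold change of -0.02 (SE 0.15). Of the 2 genes outside the family with the UDP-glycosyltransferase term, *F54C1.1* was tested, at 0.21 (SE 0.36), and *K04A8.10* had too few reads.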
